A study of Homo sapiens with 8 samples.

Results

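The comparison was between 2 means of lowering UHRF1 in the same line, the heterozygous knockout clone UF1hypo with a control hairpin (shScr), called the clone here, and the parental line with a hairpin against UHRF1, HCT116 shUHRF1, called the knockdown. Each was sequenced as 2 polyA RNA libraries, so 4 of the 8 libraries of the study enter this comparison, and all protein-coding genes of the tables were taken, with lncRNA genes described apart. HCT116 is an established human colorectal cancer cell line. HCT116 shScr, the parental line with the control hairpin, has 2 libraries and is given beside the compared groups as a reference level. In UF1hypo an exon of 1 UHRF1 allele was exchanged by Cas9-directed recombination for a neomycin cassette, which Cre later removed. The line went through G418 selection and single-cell cloning, and it is 1 clone. The hairpins were delivered by lentivirus to pools of cells, so that all groups carry a hairpin vector, and the day of harvest of these libraries is not stated in the sources used here. The clone and the knockdown thus differ at once in UHRF1 allele number, in the hairpin and in clonal origin. This comparison cannot tell these apart. HCT116 shScr differs from the clone in allele number and clonal origin, which cannot be told apart, and from the knockdown in the hairpin. The labels do not say that the 2 libraries of a group come from separate cultures, so the p-values measure the spread between these libraries, which may be technical.

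UHRF1 binds DNA that is methylated on 1 strand after replication and brings in DNMT1, the enzyme that copies the mark to the other strand. Cells that lose this maintenance lose methylation with each division, and genes and repeats held silent by it can be transcribed again. Interferon-stimulated genes, which recur below, are switched on through the interferon-stimulated response element, which is bound by a complex that holds STAT2 and IRF9 and whose core is a pair of GAAA blocks.

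TPM (transcripts per 1000000, in which reads are divided by gene length and each library is brought to 1 total) was compared on the log2(TPM + 1) scale with limma, which shares information on the spread across genes. All 8 libraries entered 1 fit with 4 residual degrees of freedom. A log2 fold change here is the clone minus the knockdown unless another pair is named, and it is smaller than the true ratio where TPM is low. Genes with a TPM over 1 in 1 or more of the 4 libraries were tested. A call needed a Benjamini-Hochberg adjusted p under 0.05 together with a log2 fold change beyond 1 in either direction, and the standard error is written SE. The tables hold no read counts, so that the depth behind a single gene is unknown and a TPM of 0 is given as listed at 0. Aligned bases were between 5.42 and 7.83 gigabases a library. Pearson's r between the replicates across 13781 genes was 0.991 in the clone, 0.991 in the knockdown and 0.992 in HCT116 shScr, and 0.956 in UF1hypo shUHRF1, which enters only the shared estimate of the spread.

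The colon epithelial label was checked against its markers. EPCAM, CDH1, KRT8, KRT18, KRT19 and CDX2 had a TPM above 1 in the clone, the knockdown and HCT116 shScr, whereas LGR5 stayed under 1 and CEACAM5 was at or near 0. Of 11 leukocyte markers 1 was above 1 in the compared libraries, CD68, a lysosomal glycoprotein of macrophages that other cells also make, and PTPRC, the marker of all leukocytes, was listed at 0. CD68 had a TPM of 6.27 and 7.30 in the knockdown and 40.6 and 42.6 in the clone, a log2 fold change of 2.45 (limma, adjusted p = 0.0003). The leukocyte markers summed to 8.32 to 8.85 in the knockdown and to 41.1 to 43.9 in the clone, nearly all of it CD68. Of 7 fibroblast markers COL1A1 alone exceeded 1, at 22.2 to 28.5 in the 4 libraries, and none of 5 endothelial markers did.

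The clone had more UHRF1 mRNA than the knockdown and less than the parental line with the control hairpin. UHRF1 (ENSG00000276043.5, GRCh38 chromosome 19, 4903080 to 4962154, plus strand) had a TPM of 47.3 and 50.6 in the clone, 31.7 and 32.7 in the knockdown and 87.5 and 98.4 in HCT116 shScr. Libraries of the 3 groups did not overlap. The log2 fold change between the clone and the knockdown was 0.59 (limma, SE 0.222, 95% confidence interval 0.08 to 1.09, adjusted p = 0.185), so UHRF1 was not called. Its adjusted p was 0.00467 with the 4 libraries alone, 0.00261 without the UF1hypo shUHRF1 libraries, 0.00726 with library weights and 0.0424 after a correction for GC content and length, with a log2 fold change between 0.49 and 0.64 under every alternative run. These values are mRNA and not protein.

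The tables held 19942 protein-coding genes, of which 12869 passed the TPM filter and were tested. Of these 12869, 506 were called (3.93%), 371 higher in the clone (2.88%) and 135 lower (1.05%). The median log2 fold change was −0.0078, and 77.8% of the genes had an absolute value under 0.5. All 506 called genes had libraries that did not overlap between the groups, against 61.7% of all genes tested. Without the fold-change threshold 733 genes had an adjusted p below 0.05, and 2451 had an unadjusted p below 0.05. Taken gene by gene, 2 libraries against 2 allow no smaller p than 0.333 in an exact two-sided permutation test. The number of calls fell when any 1 of the 4 compared libraries was left out. It was 142 without knockdown replicate 1, 121 without knockdown replicate 2, 178 without clone replicate 1 and 163 without clone replicate 2, where the lone library is assumed to vary like the other groups. Against HCT116 shScr, 455 of 12856 genes were called in the clone (3.54%), 333 higher (2.59%) and 122 lower (0.949%). In the knockdown 9 of 12704 were called (0.0708%), 6 higher (0.0472%) and 3 lower (0.0236%). There 133 genes had an absolute log2 fold change above 1, and 810 had an unadjusted limma p below 0.05. UHRF1 itself was not called in the knockdown, at −1.50 (limma, adjusted p = 0.0564), nor in the clone, at −0.91 (adjusted p = 0.0545). A missing call against HCT116 shScr is thus no sign of an equal level. These comparisons share the HCT116 shScr libraries with each other and a group with the main one, so that no overlap was formed.

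The largest differences were in genes of the interferon response, several of which had a TPM near 0 in the knockdown. IFITM1 encodes a membrane protein that blocks viral entry, IFI27 and IFI6 encode mitochondrial proteins induced by interferon, and OAS1 encodes a sensor of double-stranded RNA that activates RNase L. Their RefSeq promoters (GRCh38.p14, 250 bases before to 50 after the start) are shown because these are the 4 antiviral genes with the largest difference. Capitals mark GAAA, any 2 bases and GAAA again, or the reverse complement with TTTC in place of GAAA, the core letters of the response element.
IFITM1 (chr11:313790-314089, plus strand): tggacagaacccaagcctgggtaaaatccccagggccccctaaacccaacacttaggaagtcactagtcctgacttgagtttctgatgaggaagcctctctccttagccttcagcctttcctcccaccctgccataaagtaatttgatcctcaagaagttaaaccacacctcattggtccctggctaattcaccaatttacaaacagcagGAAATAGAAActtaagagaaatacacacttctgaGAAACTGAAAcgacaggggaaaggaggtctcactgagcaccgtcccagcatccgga
IFI27 (chr14:94110486-94110785, plus strand): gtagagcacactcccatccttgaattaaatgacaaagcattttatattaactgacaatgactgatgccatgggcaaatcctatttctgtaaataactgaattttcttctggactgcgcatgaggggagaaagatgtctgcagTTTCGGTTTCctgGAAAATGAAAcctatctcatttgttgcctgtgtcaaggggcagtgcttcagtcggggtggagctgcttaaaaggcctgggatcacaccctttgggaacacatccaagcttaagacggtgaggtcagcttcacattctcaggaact
IFI6 (chr1:27672143-27672442, minus strand): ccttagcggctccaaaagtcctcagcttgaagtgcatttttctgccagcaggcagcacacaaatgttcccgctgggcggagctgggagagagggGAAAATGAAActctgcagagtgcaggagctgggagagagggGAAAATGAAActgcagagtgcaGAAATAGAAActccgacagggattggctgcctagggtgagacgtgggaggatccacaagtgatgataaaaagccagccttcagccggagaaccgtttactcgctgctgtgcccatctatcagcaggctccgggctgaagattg
OAS1 (chr12:112906712-112907011, plus strand): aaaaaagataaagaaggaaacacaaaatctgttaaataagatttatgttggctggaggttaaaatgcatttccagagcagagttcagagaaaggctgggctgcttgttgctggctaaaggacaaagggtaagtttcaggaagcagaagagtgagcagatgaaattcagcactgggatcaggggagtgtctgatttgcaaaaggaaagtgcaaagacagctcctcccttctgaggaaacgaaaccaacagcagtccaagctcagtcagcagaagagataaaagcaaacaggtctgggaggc
The motif occurred 2 times in the window of IFITM1, 2 times in that of IFI27 and 3 times in that of IFI6, with matches on either strand counted. OAS1 had 0 matches at this spacing. Its window holds a pair of GAAA blocks set closer together, which the pattern does not count. The motif was found in 23 of the 33 called antiviral effectors with a promoter in the table (69.7%). It was found in 3.77% of the 10297 tested genes with a promoter. A gene was counted where any of its listed promoters held the motif, while a single promoter is shown above for each gene. Counted by single sequence instead, it was in 3.57% of all 35116 promoter sequences of this length. The antiviral list holds interferon-stimulated genes, so its share is no independent evidence. The shares were 18.2% of 253 genes called higher and 2.61% of 115 called lower. Outside the antiviral, class I, sensor and IRF/STAT lists it was 7.25% of 207 genes called higher. The median number of CG dinucleotides in the window was 18 in genes called higher, 19.5 in genes called lower and 26 in all tested genes. A match is a description of letters and not of binding.

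IFITM1 had a TPM of 283 and 350.3 in the clone, 1.34 and 2.20 in the knockdown and 2.16 and 2.38 in HCT116 shScr. Its log2 fold change was 6.85 (SE 0.203 and adjusted p = 9.19e-07 by limma), the largest of all genes tested. IFI27 had 1098 and 1196 in the clone, 9.81 and 13.3 in the knockdown and 4.90 and 2.55 in HCT116 shScr, a log2 fold change of 6.53 (adjusted p = 9.57e-06). For both genes the clone stood far above the other groups, and in the knockdown IFI27 was also above HCT116 shScr. OAS1 had 65.0 and 60.8 in the clone, 0.0800 and 0.192 in the knockdown and 0.513 and 0.117 in HCT116 shScr, a log2 fold change of 5.82 (adjusted p = 3.40e-06). IFI6 had 1721 and 1698 in the clone, 33.5 and 34.1 in the knockdown and 16.2 and 19.3 in HCT116 shScr, a log2 fold change of 5.62 (adjusted p = 3.71e-07). The clone and the other groups did not overlap in any of these genes.

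Antiviral effectors are the proteins that interferon-stimulated genes make to block viral replication. Of 51 listed genes 48 were tested, 39 were called higher in the clone and 0 lower, against 2.88% and 1.05% of all genes tested. The median log2 fold change of the 48 was 1.97, against −0.0078 over all genes tested, and the values ran from 0.36 to 6.85. In every one of the 48 both clone libraries lay above both knockdown libraries, which was so for 30.8% of all genes tested. The list was chosen with earlier results of these data known, so its direction is no independent evidence. IFI44 had a TPM of 28.3 and 28.7 in the clone against 0.161 and 0.355 in the knockdown, and IFIT1, which binds viral RNA lacking a host cap, had 61.5 and 54.8 against 2.87 and 2.88. Chosen after their values were seen, XAF1 and MX2 were listed at 0 in both knockdown and both HCT116 shScr libraries and had 8.27 and 7.37, and 5.63 and 6.56, in the clone. Also chosen after its values were seen, ISG15, a ubiquitin-like protein, was already abundant in the knockdown at 282 and 256 and reached 2054 and 2379 in the clone. The called members thus include genes that started near 0 and genes that started high. Among the 9 tested members not called, OAS2 had a log2 fold change of 0.89, IFIT5 of 1.23 and ISG20 of 1.06, with adjusted p of 0.0952, 0.0724 and 0.0683. Called members numbered 23 without knockdown replicate 2 and between 23 and 41 over all alternatives. In the other comparisons of the same fit, 39 of 48 members were called higher in the clone against HCT116 shScr, where 2.59% of all genes were. Their median was 1.97. Between the knockdown and HCT116 shScr 0 of 40 were called, where 0.0708% of all genes were, so this is no sign of an equal level. The median was 0.09, with 27 members positive and 13 negative. Both knockdown libraries lay above both HCT116 shScr libraries in 17 members and below in 5, where 49.4% of all genes did not overlap.

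Sensors start the interferon response when they meet foreign or displaced nucleic acid. Of 18 tested sensors and receptors 5 were called higher and 0 lower, against 2.88% and 1.05% of all genes tested. The median log2 fold change was 0.78. The number called was 8 in the fits on the 4 or 6 libraries and with library weights, and it was lower without any 1 of the compared libraries. IFIH1, a sensor of long double-stranded RNA, had a TPM of 41.4 and 38.8 in the clone and 4.23 and 4.83 in the knockdown, a log2 fold change of 2.90 (limma, adjusted p = 0.00015). RIGI, a sensor of RNA ends, had 30.2 and 23.5 against 6.14 and 3.95, a log2 fold change of 2.22. The regulator DHX58, the endosomal receptor TLR3 and the DNA-pathway adaptor STING1 had log2 fold changes of 1.62, 1.64 and 1.12. The call of DHX58 was lost without the TPM filter, that of TLR3 with FPKM and that of STING1 after the GC correction. EIF2AK2, the kinase PKR, had 1.47 (adjusted p = 0.0603) and was not called. Of 15 tested IRF and STAT factors 3 were called higher. IRF7 had a TPM of 128 and 149.6 in the clone and 19.9 and 15.1 in the knockdown, a log2 fold change of 2.93 (adjusted p = 0.000272). IRF9 rose to 30.9 and 32.5 from 5.71 and 4.85, a log2 fold change of 2.38. STAT2, the partner of IRF9, had 0.88 (adjusted p = 0.0119), under the fold-change threshold. IRF3, which acts directly downstream of the sensors, had 0.45 (adjusted p = 0.316).

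Class I antigen presentation brings peptides cut by the proteasome to the cell surface, and 11 of its 21 tested genes were called higher and 0 lower. Among all genes tested the shares were 2.88% and 1.05%. The median log2 fold change was 1.09, with both clone libraries above both knockdown libraries in 20 of the 21 genes, against 30.8% of all genes tested. Leaving out 1 of the 4 compared libraries left 5 called without knockdown replicate 1 and 6 without each of the others. PSMB9, a catalytic subunit of the immunoproteasome, had a TPM of 80.6 and 88.0 in the clone, 7.40 and 5.73 in the knockdown and 5.998 and 6.03 in HCT116 shScr, a log2 fold change of 3.50 (SE 0.192 and adjusted p = 4.46e-05 by limma). HLA-B had 321 and 379 in the clone and 90.7 and 90.7 in the knockdown, a log2 fold change of 1.93. Log2 fold changes were 1.76 for HLA-F, 1.51 for NLRC5, the transactivator of class I genes, 1.42 for the peptide trimmer ERAP1 and 1.40 for HLA-C. The abundant partners B2M and HLA-E stayed under the fold-change threshold, with 0.82 (adjusted p = 0.0421) and 0.99 (adjusted p = 0.00475). Reads of HLA genes can be shared between near-identical copies, so the split among them is uncertain.

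**Figure D1:**
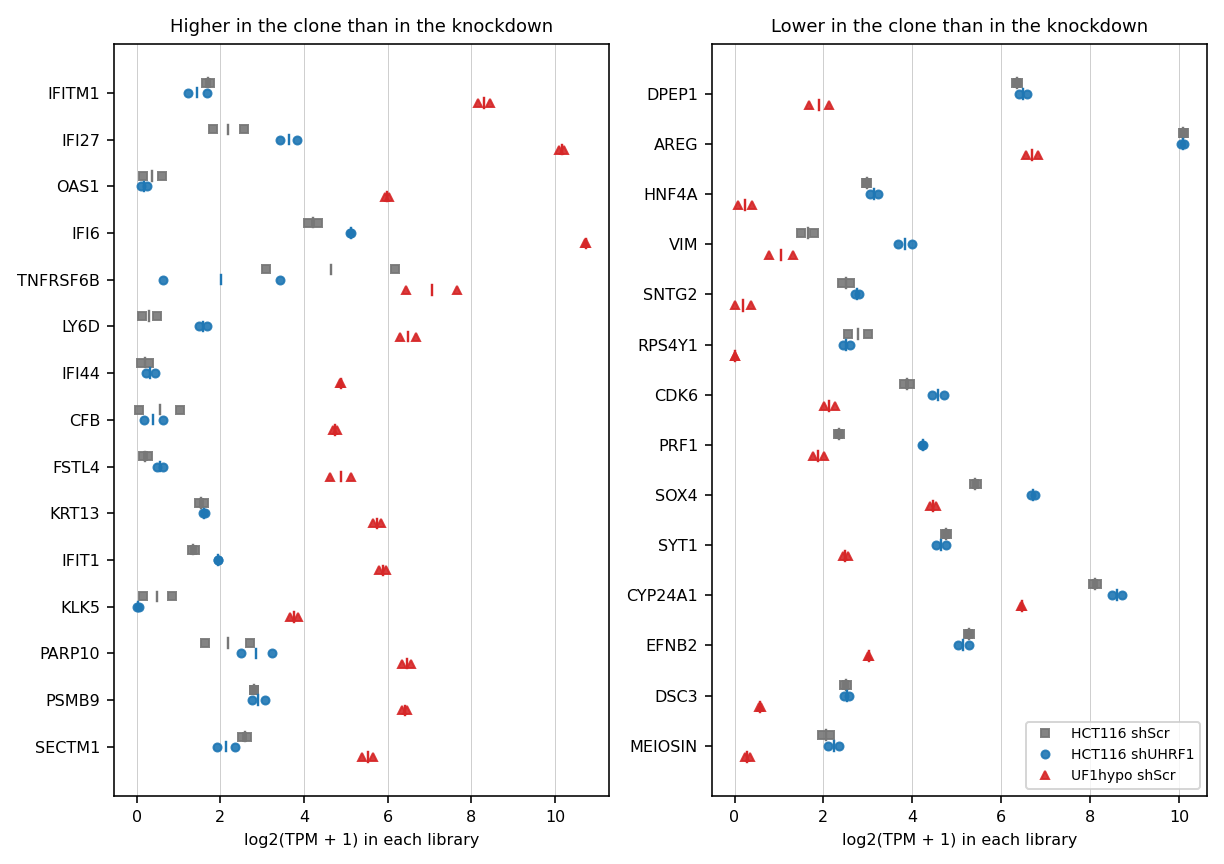
Each point is the log2(TPM + 1) of 1 library, short bars are group means, and rows are called genes with the largest difference, 15 higher in the clone and 14 lower. On the left the clone libraries (triangles) lie above both other groups, as for IFITM1 at 283 and 350.3 TPM against 1.34 and 2.20, while TNFRSF6B spreads widely within every group.

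Keratins and other squamous epithelial genes formed the next group of differences. Of 20 tested genes 9 were called higher and 1 lower, against 2.88% and 1.05% of all genes tested, with a median log2 fold change of 0.89. The number of calls, 10 in all, was 6 without knockdown replicate 1 or clone replicate 1 and 5 without knockdown replicate 2 or clone replicate 2. LY6D, a surface protein of squamous epithelium, had a TPM of 77.3 and 101 in the clone, 2.20 and 1.82 in the knockdown and 0.0901 and 0.407 in HCT116 shScr, a log2 fold change of 4.90 (SE 0.223 and adjusted p = 1.43e-05 by limma). KRT13, a keratin of internal stratified epithelia, had 49.5 and 56.6 in the clone, 2.11 and 2.02 in the knockdown and 2.03 and 1.84 in HCT116 shScr, a log2 fold change of 4.14 (adjusted p = 1.43e-05). The knockdown and HCT116 shScr were thus close in KRT13 and apart in LY6D. KRT7, a keratin of ductal epithelium, differed between all 3 groups, at 41.7 and 37.0 in HCT116 shScr, 115 and 121 in the knockdown and 415 and 479 in the clone. It was called in each comparison of the fit, with log2 fold changes of 1.91 between the clone and the knockdown and 1.56 between the knockdown and HCT116 shScr. KRT80, KRT15 and OVOL1, a transcription factor of epithelial differentiation, had log2 fold changes of 2.11, 1.86 and 1.47. The simple-epithelium keratins of the colon were abundant and not called, KRT8 with 0.66, KRT18 with 0.61 and KRT19 with 0.90. KRT19, for example, had 2607 and 2841 in the clone and 1449 and 1473 in the knockdown. The called gene of the list on the other side was DSC2, a desmosomal cadherin chosen after its value was seen, at −1.35. Outside the list, the desmosomal cadherin DSC3 was also called lower, at −1.96.

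Intestinal identity genes were called in both directions. Of 14 tested genes 1 was called higher and 2 lower, against 2.88% and 1.05% of all genes tested, with a median log2 fold change of 0.01. HNF4A, a transcription factor of gut and liver epithelium, had a TPM of 0.313 and 0.0545 in the clone, 7.22 and 8.43 in the knockdown and 6.90 and 6.81 in HCT116 shScr, a log2 fold change of −2.90 (SE 0.281 and adjusted p = 0.000716 by limma). DPEP1, a membrane dipeptidase, had 2.19 and 3.40 in the clone, 95.3 and 83.4 in the knockdown and 82.2 and 79.7 in HCT116 shScr, a log2 fold change of −4.59 (adjusted p = 5.13e-05). This was the largest decrease of all genes tested, and in both genes the clone alone stood low. KRT20, a keratin of differentiated colon cells, was higher in the clone at 9.28 and 9.06 against 1.88 and 2.11, a log2 fold change of 1.77. CDX2, the intestinal master factor, had 13.7 and 13.8 in the clone and 13.6 and 13.0 in the knockdown. HNF4G had −1.03 (adjusted p = 0.0528) and KLF4 0.62 (adjusted p = 0.0871).

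AREG, the EGFR ligand amphiregulin, separated the groups by 1 of the largest differences. Its TPM was 114 and 93.8 in the clone, 1112 and 1054 in the knockdown and 1107 and 1087 in HCT116 shScr, a log2 fold change of −3.38 (SE 0.184 and adjusted p = 4.46e-05 by limma). EREG, the neighbouring ligand epiregulin, had 94.2 and 79.1 in the clone against 232 and 235, a log2 fold change of −1.43 (adjusted p = 0.0549), and was not called. Of 25 tested genes of the ligands, receptors and MAPK output, 3 were called higher and 1 lower, with a median of −0.04, and 1 or 2 calls were left without any 1 of the 4 compared libraries. Among all genes tested 2.88% were called higher and 1.05% lower. The higher genes of the list were FOS, an immediate early transcription factor, ERBB2, a receptor of the EGFR family, and DUSP4, a phosphatase of ERK, with 1.34, 1.13 and 1.06. ERBB2 had 0.93 after the GC correction and was then not called. EGFR itself had 0.75 (adjusted p = 0.0435), under the fold-change threshold. Of 12 tested WNT targets and antagonists, 2 were called in each direction, and 0 or 1 call was left without any 1 of the 4 compared libraries. The WNT antagonists DKK1 and NOTUM had 1.15 and 1.27. AXIN2 and RNF43, targets of the pathway that restrain it, had −1.49 and −1.25. DKK1 had 1101 and 1049.8 in the clone and 502 and 464 in the knockdown, and AXIN2 had 3.99 and 4.81 in the clone and 15.4 and 13.0 in the knockdown.

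Genes of the epithelial-mesenchymal transition were called in both directions, 3 higher and 3 lower of 22 tested, against 2.88% and 1.05% of all genes tested. Leaving out 1 of the 4 compared libraries left 2 or 3 calls. VIM, the mesenchymal filament vimentin, had a TPM of 1.48 and 0.700 in the clone, 14.96 and 11.7 in the knockdown and 2.45 and 1.82 in HCT116 shScr, a log2 fold change of −2.79 (SE 0.298 and adjusted p = 0.00109 by limma). Here the knockdown was the group that stood apart. SPARC, a matrix glycoprotein, was listed at 0 in both HCT116 shScr libraries and had 2.23 and 1.39 in the knockdown and 0.0253 and 0.217 in the clone. OVOL2, an epithelial transcription factor, had −1.72. TWIST1, a transcription factor of mesenchymal programs, had 10.4 and 10.2 in the clone and 0.825 and 1.16 in the knockdown, a log2 fold change of 2.51 (adjusted p = 0.000503). CDH1, the epithelial cadherin, had 0.59 (adjusted p = 0.0599) and ZEB1 −0.73 (adjusted p = 0.208).

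Among the other large differences, several genes with a wide range of functions were nearly absent from 1 side. CFB, complement factor B, had a TPM of 24.9 and 26.6 in the clone and 0.557 and 0.125 in the knockdown, a log2 fold change of 4.34 (limma, adjusted p = 0.000227). FSTL4, a secreted follistatin-like protein, had 23.8 and 33.7 against 0.414 and 0.539, a log2 fold change of 4.32. KLK5, a serine protease of the skin, had 11.8 and 13.6 against 0.0410 and 0, a log2 fold change of 3.74. PARP10 and SECTM1 had 3.59 and 3.38. TNFRSF6B, the decoy receptor for FAS ligand, had 86.0 and 202 in the clone and 0.537 and 9.78 in the knockdown, a log2 fold change of 5.03 (SE 1.16, limma adjusted p = 0.0401). Its libraries differed widely within each group, its locus is shared with the readthrough gene RTEL1-TNFRSF6B, which was chosen after its call was seen, and it was not called without the TPM filter, under quantile normalization or with the replicate number as a block. On the other side, CDK6, a kinase of the G1 phase, had 3.76 and 3.03 in the clone and 25.2 and 20.8 in the knockdown, a log2 fold change of −2.45 (adjusted p = 0.00109). CYP24A1, the enzyme that degrades vitamin D, had 86.1 and 87.8 against 421 and 359, and EFNB2, an ephrin ligand, had 7.19 and 7.05 against 37.5 and 31.8. Their log2 fold changes were −2.15 and −2.13. SYT1, a synaptic vesicle protein, had −2.15, the desmosomal cadherin DSC3 −1.96, SNTG2 −2.56 and MEIOSIN, a meiotic regulator, −1.95. RPS4Y1, a ribosomal protein gene of the Y chromosome, was listed at 0 in both clone libraries and had 5.04 and 4.40 in the knockdown and 4.85 and 7.08 in HCT116 shScr, and it was the 1 gene of that chromosome tested.

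The level of the parental line with the control hairpin was set beside each difference. The mean log2(TPM + 1) of HCT116 shScr lay nearer to the knockdown than to the clone in 422 of the 506 called genes (83.4%) and in 65.2% of all genes tested. By direction it was 324 of 371 genes called higher and 98 of 135 called lower. In all 39 called antiviral effectors, 11 class I genes and 10 keratin and squamous genes HCT116 shScr was nearer to the knockdown. In the remaining 84 called genes it was nearer to the clone, 47 higher and 37 lower. These are positions of means and were not tested.

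Among the named genes of these 84, some were low in the knockdown alone. TPP1, a lysosomal peptidase, had a TPM of 19.9 and 16.4 in the knockdown, 59.2 and 65.9 in the clone and 61.8 and 54.4 in HCT116 shScr, a log2 fold change of 1.74 (SE 0.173 and adjusted p = 0.00083 by limma). PSMB7, a catalytic subunit of the constitutive proteasome, had 190.3 and 166 in the knockdown, 371 and 360.5 in the clone and 379 and 389.7 in HCT116 shScr, a log2 fold change of 1.04 (adjusted p = 0.00372). Both were among the 3 genes called lower in the knockdown against HCT116 shScr. Of 28 lysosomal hydrolases 2 were called higher, the other being CTSH at 1.00, and of 14 proteasome core subunits PSMB7 alone, with PSMB5 at 0.12 and PSMB6 at 0.15. The share called higher among all genes tested was 2.88%. Chosen after its values were seen, KPNA3, a nuclear import receptor, had 11.7 and 12.8 in the knockdown, 38.5 and 35.7 in the clone and 42.4 and 42.7 in HCT116 shScr.

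Other genes of the 84 were high in the knockdown. PRF1, the pore-forming protein perforin, had 17.6 and 18.0 in the knockdown, 2.40 and 3.01 in the clone and 4.04 and 4.20 in HCT116 shScr, a log2 fold change of −2.35 (limma, adjusted p = 0.000716). SOX4, a transcription factor of progenitor cells, had 107 and 100.3 in the knockdown, 22.2 and 20.2 in the clone and 42.9 and 40.8 in HCT116 shScr, so that HCT116 shScr lay between them. SLC2A1, the glucose transporter GLUT1, had 382 and 403 in the knockdown, 149 and 175 in the clone and 150.01 and 155 in HCT116 shScr, a log2 fold change of −1.28 (adjusted p = 0.00528). The hypoxia and glycolysis list to which it belongs was mostly on the other side of 0. Of its 27 tested members 24 were positive, with a median of 0.21. CA9, a carbonic anhydrase, and ENO2, an enolase, were called higher at 1.65 and 1.50, and SLC2A1 alone lower. The shares over all genes tested were 2.88% higher and 1.05% lower. Against HCT116 shScr the list had 15 members positive and 12 negative in the clone, with a median of 0.08. In the knockdown 3 were positive and 24 negative, with a median of −0.23. SPATA18, a p53 target that acts in mitochondrial quality control, had 1.50 and 1.84 in the knockdown and 0.0334 and 0.0110 in the clone.

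Cancer-testis genes, which are silent in most adult tissues and are held so by DNA methylation, were called in both directions. Of 42 listed genes 13 were tested, with 3 called higher and 3 lower, against 2.88% and 1.05% of all genes tested. The 6 calls fell to 1 without knockdown replicate 1, 3 without knockdown replicate 2, 2 without clone replicate 1 and 3 without clone replicate 2. MAGEA4 was listed at 0 in both HCT116 shScr libraries and had a TPM of 8.24 and 6.85 in the knockdown and 1.01 and 1.91 in the clone, a log2 fold change of −1.82 (SE 0.234 and adjusted p = 0.00335 by limma). PAGE1 and GAGE2A were at 0 throughout HCT116 shScr and the clone and had 2.12 and 1.09, and 1.47 and 1.28, in the knockdown. MAGEB1 went the other way, with 33.4 and 29.6 in the clone and 2.61 and 2.37 in the knockdown, a log2 fold change of 3.22 (adjusted p = 0.000272). MAGEA9 had 3.40 and 2.45 in the clone and 0.457 and 0.169 in the knockdown, and MAGEA11 had 3.50 and 3.61 against 1.46 and 1.09. MAGEA3 was expressed in all groups, at 98.4 and 106 in the clone and 92.3 and 84.8 in the knockdown. The calls of PAGE1, GAGE2A and MAGEA11 were lost with FPKM, and that of MAGEA11, whose log2 fold change was 1.01, also under quantile normalization, the replicate block and the GC correction. Genes of these families are near-identical copies of each other, so the split of reads among them is uncertain.

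The promoter-methylated tumour suppressor genes of the study's panel stayed under a TPM of 1 in both groups. None of the 10 genes, which include UCHL1, SFRP1 and the GATA factors, exceeded a TPM of 1 in any of the 4 libraries, and the highest value was 0.806, of ICAM4 in clone replicate 2. Of the panel, 2 genes, GATA4 and TFF3, were listed at 0 in all 4. Without the TPM filter 8 could be tested and 0 were called (of 16380 genes 420, or 2.56%, were called in that fit, 307 higher at 1.87% and 113 lower at 0.69%), with 0 at an unadjusted p below 0.05. LXN had the largest log2 fold change of these at 0.50, with 0.630 and 0.541 in the clone and 0 and 0.263 in the knockdown. Of 15 tested genes known for hypermethylation in colorectal cancer 0 were called higher and 1 lower, VIM. In the main fit 2.88% of all genes tested were called higher and 1.05% lower. Of 15 tested imprinted genes, normally expressed from 1 parental allele, PEG10 and SGCE, neighbours on chromosome 7, were called higher at 1.59 and 1.30, and MEST had −0.97 (limma, adjusted p = 0.0225), short of the fold-change threshold.

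Regulators of DNA methylation were compared next. Of 21 tested regulators, UHRF1 included, 0 were called, which is near the 3.93% called among all genes, and log2 fold changes ran from −0.69 to 0.59 with a median of −0.25. Both clone libraries lay below both knockdown libraries in 13 of them and above in 2, where 30.9% and 30.8% of all genes tested did so. The 15 that do not overlap are a share near the 61.7% of all genes. DNMT1, the maintenance enzyme, had a TPM of 147 and 162 in the clone, 182 and 165 in the knockdown and 176 and 196 in HCT116 shScr, a log2 fold change of −0.17 (limma, 95% confidence interval −0.52 to 0.18, adjusted p = 0.622). DNMT3B, a de novo enzyme, had 20.7 and 23.8 in the clone against 39.9 and 33.5, a log2 fold change of −0.69 (95% confidence interval −1.13 to −0.26, adjusted p = 0.073), and DNMT3A had 0.37 (adjusted p = 0.458). UHRF2, the paralog of UHRF1, had −0.66 (adjusted p = 0.218) and HELLS, a chromatin remodeller that assists methylation, −0.64 (adjusted p = 0.352). For the demethylating enzymes the values were −0.49 for TET1, −0.21 for TET2 and −0.29 for TET3, with 95% confidence intervals that held 0. Of 15 tested genes of H3K9 methylation and the HUSH complex, ZNF91, which represses retroelements, was called lower at −1.58, with 0.213 and 0.198 in the clone and 2.85 and 2.38 in the knockdown.

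**Figure D2:**
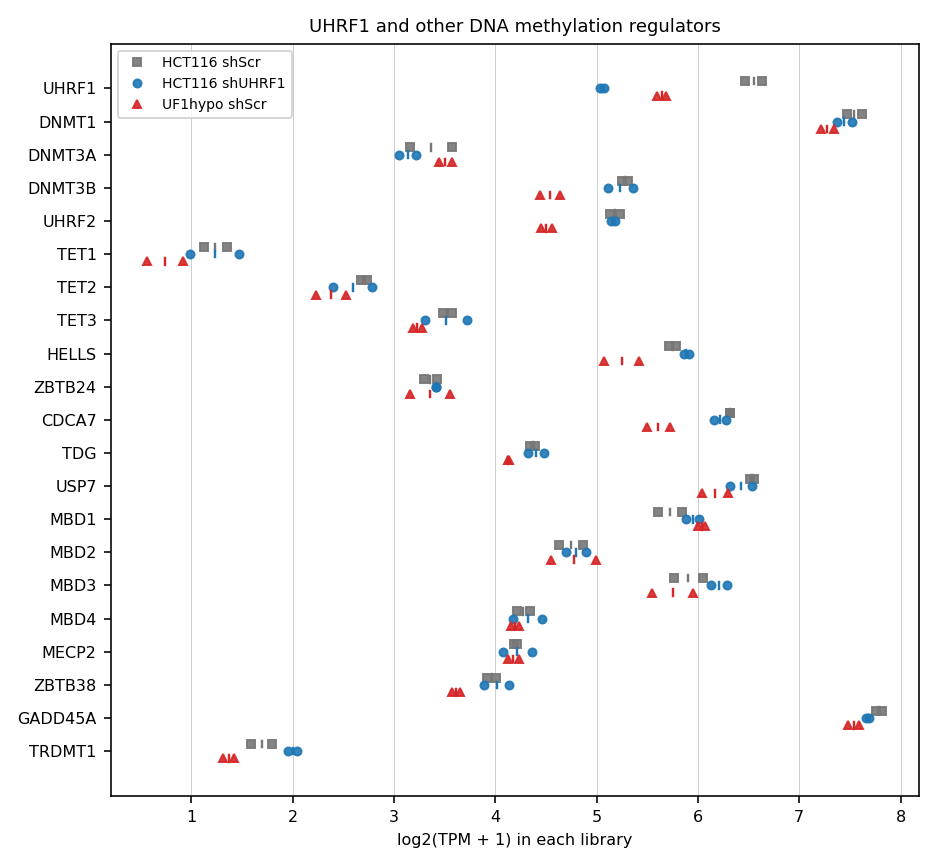
Each point is the log2(TPM + 1) of 1 library and short bars are group means, for the 21 tested regulators of DNA methylation in the clone, the knockdown and HCT116 shScr. UHRF1 separates all 3 groups, at 47.3 and 50.6, 31.7 and 32.7, and 87.5 and 98.4 TPM, and none of the 21 was called between the clone and the knockdown.

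Genes of cell division and stress were compared by list, and the share called in each was near the 3.93% of all genes tested. None of 40 DNA replication genes and none of 30 G2/M genes was called by limma, and their medians were −0.28 and −0.51. In the G2/M list both clone libraries lay below both knockdown libraries in 27 of the 30 genes, against 30.9% of all genes tested, with values from −0.97 to 0.05. CCNB1 had a TPM of 248 and 243 in the clone and 338 and 327 in the knockdown, MKI67 had 125 and 106 against 172 and 139, and MCM2 had 169.9 and 187 against 225 and 193. In the replication list both clone libraries were lower in 30 of 40 genes and higher in 1. Across all genes tested the log2 fold change also moved with GC content (Spearman's rho 0.389). No corrected median of the replication or G2/M list is given here. Of 27 tested genes of the ATF4 and stress response, ASNS, asparagine synthetase, was called lower at −1.02 (limma, adjusted p = 0.0242), with a median of −0.30. Its call was lost without the TPM filter, with FPKM and after the GC correction. ASNS had a TPM of 357 and 312 in HCT116 shScr, 175 and 162 in the knockdown and 84.7 and 80.6 in the clone. ATF4 itself had −0.51 (adjusted p = 0.0501). Against HCT116 shScr, 10 of 27 tested genes of the list were called lower in the clone, where 0.949% of all genes were, with a median of −0.82. In the knockdown 1 of 27 was called lower, where 0.0236% of all genes were, with a median of −0.49. In each of these comparisons both libraries lay below both HCT116 shScr libraries in 20 of the 27. Of 25 tested p53 targets SPATA18 alone was called, lower, with a median of −0.24. Against HCT116 shScr the median of the p53 targets was 0.23 in the clone, with 15 of 24 positive. In the knockdown it was 0.47, with 24 of 25 positive. CDKN1A, the cell cycle inhibitor p21, had 426 and 455 in the clone, 519.5 and 485 in the knockdown and 285 and 307 in HCT116 shScr, a log2 fold change of −0.19 (adjusted p = 0.562).

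**Figure D3:**
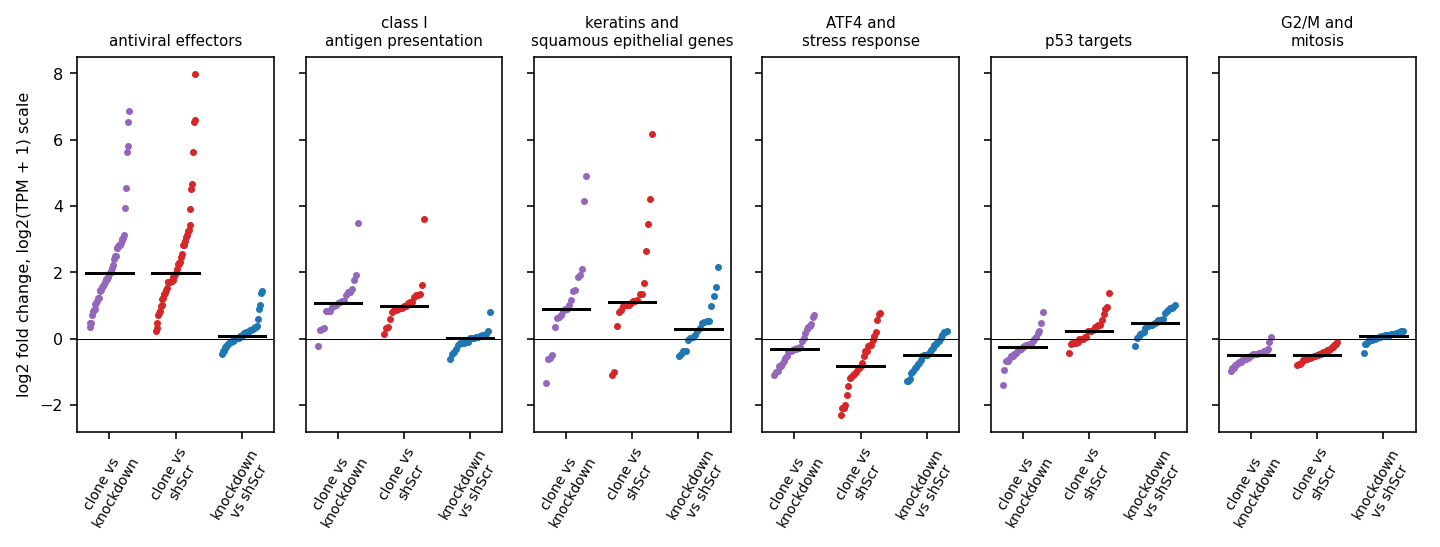
Each point is the log2 fold change of 1 gene in the clone against the knockdown, the clone against HCT116 shScr and the knockdown against HCT116 shScr, for 6 lists and the members tested in the comparisons, with black bars at the median. The comparisons share libraries and are set side by side only; for antiviral effectors the medians are 1.97, 1.97 and 0.09.

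Long non-coding RNAs were taken from the fit on all annotated genes, in which 51 of 2454 tested lncRNA genes were called (2.08%), 32 higher in the clone (1.3%) and 19 lower (0.774%). H19, an imprinted RNA, had a TPM of 128 and 137 in the clone, 3.34 and 4.47 in the knockdown and 2.35 and 2.68 in HCT116 shScr, a log2 fold change of 4.78 (limma, SE 0.207). MIR4527HG had 48.4 and 43.7 in the clone and 0 and 1.04 in the knockdown, a log2 fold change of 5.04. UCA1, an RNA known from urothelial cancer, had 262 and 249 in the clone and 68.7 and 53.6 in the knockdown, a log2 fold change of 2.05. LINC02935 and CCDC144NL-AS1 had 3.35 and 2.83. On the other side LINC01405 was listed at 0 in clone replicate 1 and had 0.0451 in replicate 2 against 5.34 and 5.91 in the knockdown, a log2 fold change of −2.69. LINC02331, CASC8, GIHCG and LINC02964 had −1.73, −1.72, −1.69 and −1.48. CCDC144NL-AS1 is antisense to another gene, and whether the counting used strand is not given in the sources used here.

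Sequence composition moved with the comparison. Across the 12869 genes, which are not independent replicates, Spearman's rho between the log2 fold change and the GC content of the transcript was 0.389, and with its length −0.107. Between the replicates of 1 group, Spearman's rho of their difference with GC content was −0.508 in the clone and −0.068 in the knockdown. It was −0.042 in HCT116 shScr and 0.814 in UF1hypo shUHRF1. Once corrected for both, rho with GC content was 0.002, and 528 genes were called, 355 higher and 173 lower. Of the 74 named genes that were called 69 stayed called after this correction.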

How the data were processed

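Gene abundances of 8 polyA RNA-seq libraries were used as deposited. The authors aligned trimmed reads to GRCh38 by HISAT2 and had StringTie quantify them, tools given as versions 2.0.4 and 2.1.4 in the submitters' processing notes. TPM as deposited by the authors was scaled for gene length and library total, FPKM as deposited by the authors was scaled for gene length and aligned bases, and the deposited coverage signal is mean per-base read coverage. Coverage divided by FPKM gave the aligned bases of a library, and FPKM was otherwise an alternative to TPM.

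Gene identifiers were matched to GENCODE version 44 (60463 of 60649), records sharing an identifier were summed, and protein-coding genes were kept. log2(TPM + 1) was fitted with limma 3.58.1 (R 4.3.3), with variances that follow the mean, on all 8 libraries with the 4 groups as terms. Thresholds follow the methods of the study. The fit was tested on simulated data. Other steps used Python 3.11.15 with pandas 2.3.3 and matplotlib 3.10.9.

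The members, gene lists and tests were chosen with earlier results of these data known. The genes named are UHRF1, the DNA methylation regulators, the panel of 10 tumour suppressor genes, for each direction the 15 calls of greatest size whose libraries do not overlap between the groups, up to 6 called and 3 uncalled members of each list, and 5 called lncRNA genes in each direction. Readthrough genes were left out. Genes outside this rule are marked as chosen after their values were seen. Tried as alternatives were 0.1 as pseudocount, no minimum TPM, all annotated genes, the 4 libraries alone, 6 libraries, FPKM, median-ratio scaling, quantile normalization, the largest record per identifier, the replicate number as a block, a correction for GC content and length in 10 bins each, library weights, and each library left out in turn. DNA methylation and protein were not analysed here. Some results for genes that this rule names are not reported here.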

Additional observations from a re-analysis of the deposited data

How the results depend on the processing

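Each group has 2 libraries, and the TPM tables keep no counts from which the precision of a low gene could be had. Of the 74 named genes that were called, 74 stayed called with the 4 libraries alone, 6 libraries, all annotated genes, the largest record per identifier, median-ratio scaling and library weights. The numbers were 73 with a pseudocount of 0.1, 71 under quantile normalization, 70 without the TPM filter, 69 with the GC and length correction and 65 with FPKM, and 41 to 51 without 1 of the 4 compared libraries. None changed direction. With no single library left out the calls ran from 405 with FPKM (321 higher, 84 lower) to 634 with the 4 libraries alone. Leaving out 1 library at a time gave 121 to 622 calls, 100 to 435 higher and 20 to 187 lower. The causes of these shifts were not tested. The UHRF1 log2 fold change passed an adjusted p of 0.05 at 0.59 with the 4 or 6 libraries and with library weights and at 0.49 after the GC correction, and it was 0.54 to 0.64 with 1 library left out.

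Of the list counts, those of sensors rose from 5 to 8 with the 4 libraries alone, with 6 libraries and with library weights, and intestinal genes from 3 to 5 with a pseudocount of 0.1. With FPKM the counts were 3 for cancer-testis genes, 1 for lysosomal hydrolases and 0 for each of the ATF4, p53 and H3K9 lists. Without the TPM filter they were 0 for ATF4 and 1 for imprinted genes. The ATF4 count was 2 with the 4 or 6 libraries, library weights and the GC correction, and the lysosomal count 1 under quantile normalization and the GC correction. With 1 library left out the ranges were 23 to 41 for antiviral effectors, 5 to 12 for class I, 1 to 8 for sensors, 5 to 10 for keratins, 1 to 7 for cancer-testis genes, 1 to 5 for EGFR, 0 to 4 for WNT, 2 to 6 for the epithelial-mesenchymal transition, 2 to 4 for intestinal genes, 0 to 3 for hypoxia, 0 to 2 for ATF4 and imprinted genes, 1 to 2 for lysosomal hydrolases and 0 to 1 for p53, proteasome and H3K9. CDX2 and COL1A1, which were not called, changed sign to −0.15 and −0.12 after the GC correction, and COL1A1 ran from −0.10 to 0.23 with 1 library left out.

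Replicate numbers did not pair the libraries of the compared groups: the correlation between the replicate differences of the clone and the knockdown was −0.0042. Between the clone and UF1hypo shUHRF1, which shares the fit, it was −0.402. With the replicate number as a block 436 genes were called, 324 higher and 112 lower, with 72 of the 74 named calls kept.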

Other observations

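The following families were picked after the values were seen, so their counts are a description. Among all genes tested 2.88% were called higher and 1.05% lower. Of 9 tested kallikreins, serine proteases of epithelial surfaces, 4 were called higher, KLK5, KLK6, KLK7 and KLK10, with a median log2 fold change of 1.06. KLK10 had a TPM of 37.5 and 42.2 in the clone and 3.18 and 3.48 in the knockdown. Of 12 tested S100 proteins 5 were called higher. S100A4 had 1519 and 1491 in the clone and 181 and 214 in the knockdown, a log2 fold change of 2.93. Of 4 tested beta connexins, which form gap junctions, 3 were called higher. APOL1, the trypanosome lytic factor, had 4.79 and 4.58 in the clone and 0.184 and 0.350 in the knockdown, and 3 of 4 tested members of its family were called higher. Of 9 tested MHC class II genes 2 were called higher, HLA-DRA at 1.48 and HLA-DOB at 1.18. The neural guidance ligands SEMA3A and SEMA3C were called lower at −1.62 and −1.90, and SEMA3B higher at 1.37.

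By chromosome, the median log2 fold change of the tested genes ran over the autosomes and X from −0.16 on chromosome 4 (444 genes) to 0.10 on chromosome 22 (335 genes). Corrected for GC content and length they were −0.02 and −0.01. The share of genes called ran from 1.65% on chromosome 15 to 5.21% on chromosome X.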
